A study of Caenorhabditis elegans with 2 samples.

Results

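Heterochronic genes set the order in which larval cells of Caenorhabditis elegans take on the fates of successive stages. The 10 genes described here, lin-4, let-7, lin-14, lin-28, lin-29, lin-41, lin-42, lin-46, hbl-1 and daf-12, were chosen by symbol from 46926 annotated genes. Of these, 8 encode proteins and 2, lin-4 and let-7, are microRNA genes. The data were ChIP-seq peak lists for eGFP-tagged NHR-12, a nuclear hormone receptor, from whole L2 larvae of strain OP318, which carries the unc-119(ed3) mutation and the integrated transgene wgIs318. There was 1 group of 2 biological replicates, the sexes were pooled, and no second genotype, stage or untagged strain was part of the design. Every value is therefore a description of this group, without a test between conditions, and the signal of a summit has no error of its own. Because whole animals were used, the cells in which a site was enriched are unknown.

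In this pathway the microRNAs lin-4 and let-7 silence messenger RNAs of early-fate genes through sites in their 3' untranslated regions (3' UTRs), so that later fates can follow. LIN-14 is a nuclear protein that promotes early larval fates, LIN-28 is an RNA-binding protein that blocks maturation of let-7, HBL-1 is a zinc finger protein related to Hunchback, and LIN-41 is a TRIM-NHL RNA-binding protein. LIN-46 acts downstream of LIN-28, LIN-29 is the zinc finger factor of the larval-to-adult switch, LIN-42 is related to the clock protein Period, and DAF-12 is a nuclear receptor for the dafachronic acid hormones. DAF-12 and NHR-12 thus belong to the same receptor family.

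The microRNA sequences are shown because they tie the members to each other. They were read from the WBcel235 genome at RefSeq coordinates, and capitals mark the seed, bases 2 to 8. The lin-4 product lies at chrII:5902269-5902289 on the plus strand and the let-7 product at chrX:14744234-14744255 on the minus strand. The let-7 seed is also that of mir-48, mir-84 and mir-241.
lin-4: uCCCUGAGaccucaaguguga
let-7: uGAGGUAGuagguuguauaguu
mir-48: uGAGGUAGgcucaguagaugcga
mir-84: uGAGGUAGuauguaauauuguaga
mir-241: uGAGGUAGgugcgagaaauga
Matches to the lin-4 seed (CTCAGGG) lay in the annotated 3' UTRs of 37 of 16794 protein-coding genes (0.220%), and among the members lin-14 had 3 and lin-28 had 1. Matches to the let-7 seed (CTACCTC) lay in 150 of the 16794 (0.893%), with 4 each in lin-14 and hbl-1, 3 in daf-12 and 1 in lin-28. lin-29, lin-41, lin-42 and lin-46 had no match to either seed. Only exact seed matches were counted, so a gene without one may still be a target. The lin-14 sites below lie at chrX:11485084-11485105, chrX:11485132-11485153 and chrX:11485363-11485384, and the hbl-1 sites at chrX:5827550-5827571 and chrX:5827593-5827614, all on the plus strand, with the seed match in capitals.
lin-14 site for lin-4, a: tctcttttaatccaaCTCAGGG
lin-14 site for lin-4, b: aggaatttcttctacCTCAGGG
lin-14 site for lin-4, c: aaaactcacaaccaaCTCAGGG
hbl-1 site for let-7, a: cctgtataatgccttCTACCTC
hbl-1 site for let-7, b: gttaattaccattttCTACCTC
No thresholded, pooled or replicate 2 summit lay in the 3' UTR of lin-14 or hbl-1, while replicate 1 had 3 summits in that of lin-14. The other members with seed matches, lin-28 and daf-12, each had a pooled summit in the 3' UTR, with signals of 24.7 and 10.7. Replicate 2 also had a summit in each of these, and replicate 1 had one in that of daf-12.

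None of the 10 genes carried a peak that passed the submitters' threshold on the irreproducible discovery rate (IDR), which measures how alike replicates rank peaks. A summit was counted for a gene when it lay in the gene body or within 3000 bp upstream of the 5' end, and this window held a thresholded summit in 0 of 10 members, against 1.5% of 19973 nuclear protein-coding genes. Protein-coding genes of similar length would have given 0.177 such genes for a set of these sizes, so the absence is near what the background gives. In the pooled relaxed list, 9 of 10 members held at least 1 summit, against 70.4% of protein-coding genes, and the exception was hbl-1. All 10 members held a summit in each replicate's own relaxed list, against 78.8% of genes in replicate 1 and 70.6% in replicate 2. Genes of similar length would have given 8.31 such members in the pooled list, 8.90 in replicate 1 and 8.34 in replicate 2. These counts are therefore closer to the background than the shares over all genes make them look.

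The lists used were the 228 thresholded peaks (199 nuclear), the 29431 pooled relaxed peaks and the 30000 relaxed peaks of each replicate, so most genes hold relaxed summits and only rank and replicate agreement separate them. Signal values are the peak caller's own and cannot be compared from list to list, and ranks below are among nuclear summits, with 1 the strongest. The 199 nuclear thresholded summits were the 199 strongest nuclear pooled summits, with values from 37.2 to 170.9, while the pooled median was 12.6. A summit absent from a replicate was not among its 30000 listed peaks, whose lowest nuclear value was 2.40 in replicate 1 and 7.66 in replicate 2. Read depth is unknown.

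**Figure D1:**
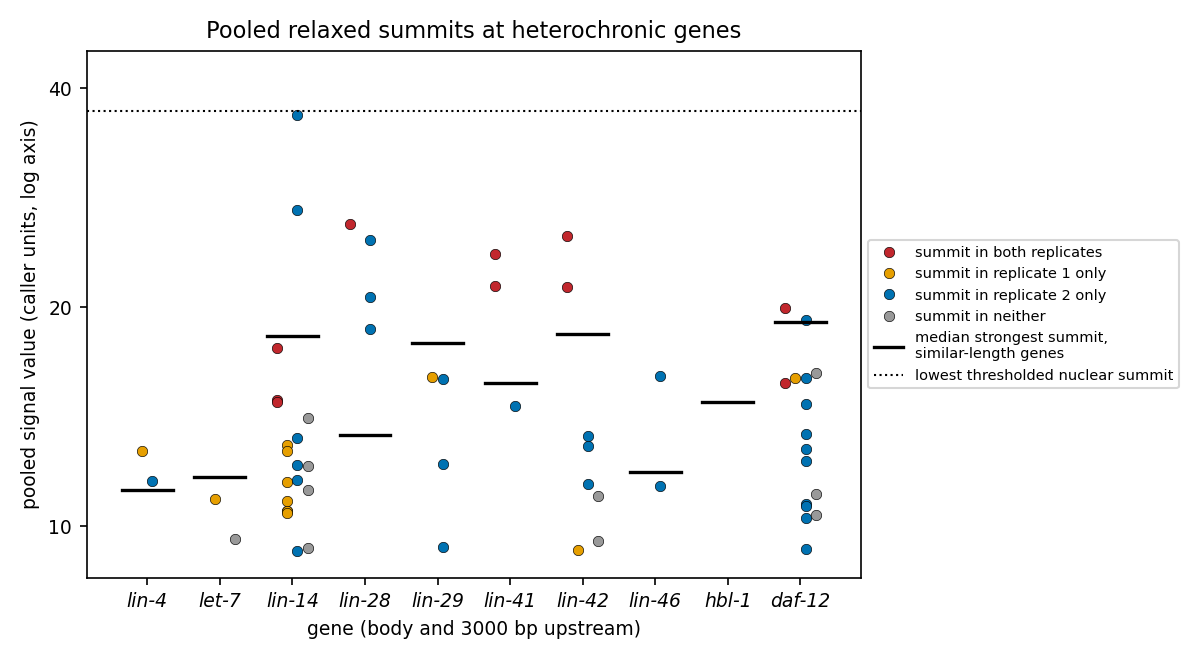
Signal value of every pooled relaxed summit (caller units, log axis) in the window of each heterochronic gene, coloured by whether a replicate had a summit within 100 bp; black bars are the median strongest summit of similar-length protein-coding genes. The strongest lin-14 summit, at 36.7 and found in replicate 2 only, lies just under the dotted line at 37.2, the lowest thresholded nuclear value, and hbl-1 has no point.

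Of the microRNA members, let-7 (WBGene00002285, X: 14743590 to 14745321, minus strand) showed the wider gap between the replicates. Its strongest summit in replicate 1 lay 1837 bp upstream of the 5' end, outside any protein-coding gene. That summit had a value of 14.6 and nuclear rank 181, the highest rank of any member in that replicate. Of 4477 protein-coding genes of similar length, 99.0% had a weaker strongest summit in replicate 1, and of 259 other microRNA genes 95.8% did. In replicate 2 the strongest let-7 summit had a value of 9.35 and rank 20630, the lowest of the members' strongest summits in that replicate, and its nearest summit to the replicate 1 site lay 2449 bp away. The pooled list held 2 let-7 summits, at 10.9 (792 bp inside the gene) and 9.60 (1298 bp upstream), the nearer of which was 539 bp from the replicate 1 site. That site was also 145 bp upstream of the 5' end of C05G5.2, a protein-coding gene, so the gene it belongs to was not settled by position. Its sequence, at chrX:14747108-14747208 on the minus strand, is shown as the highest-ranked replicate 1 site; its GC content was 57.4%, and capitals mark a GAGAGA match.
let-7 upstream, replicate 1: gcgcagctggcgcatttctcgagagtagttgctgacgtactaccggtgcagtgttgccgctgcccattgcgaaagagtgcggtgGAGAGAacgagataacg

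The lin-4 gene (WBGene00002993, II: 5902254 to 5902347, plus strand) lies within the protein-coding gene F59G1.4, and each of its summits did too. The pooled list held summits 391 bp upstream (12.7, rank 14519) and 2361 bp upstream (11.5, rank 18545). Replicate 1 had a summit 479 bp upstream with a value of 8.48 and rank 1117, and the nearest replicate 2 summit was 649 bp away. Replicate 2 had its strongest summit 2366 bp upstream, with a value of 12.02 and rank 10746. Thus both microRNA members had their highest-ranked site in replicate 1, at a place where replicate 2 listed none within 100 bp. Neither had a thresholded summit, which 2.70% of the other microRNA genes had.

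lin-14 (WBGene00003003, X: 11465560 to 11485871, plus strand), the target of lin-4, carried the most pooled and replicate 1 summits and the strongest pooled summit of the 10 genes. Its window held 20 pooled summits, against a median of 7 in 229 protein-coding genes of similar length, of which 99.6% had fewer. In replicate 2 it held 11, more than 81.7% of those genes, and daf-12 held 15. The strongest lay 4677 bp inside the gene, in an intron, at X: 11470077 to 11470396, with a pooled value of 36.7 and nuclear rank 214, outside the 199 nuclear summits of the thresholded list. In replicate 2 it had a value of 34.5 and rank 95, whereas the nearest replicate 1 summit was 786 bp away. The second pooled summit, 2620 bp upstream (27.2, rank 609), had a value of 24.2 and rank 380 in replicate 2, and the nearest replicate 1 summit, 150 bp away, had a value of 3.07 and rank 21166. Both strong lin-14 sites were thus replicate 2 sites. Their sequences are shown for that reason, at chrX:11470187-11470287 and chrX:11462890-11462990 on the plus strand, with an AGGTCA match, the half-site known for many nuclear receptors, in capitals; GC content was 25.7% and 22.8%.
lin-14 intron: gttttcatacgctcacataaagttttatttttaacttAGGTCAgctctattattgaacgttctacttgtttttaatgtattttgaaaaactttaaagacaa
lin-14 upstream: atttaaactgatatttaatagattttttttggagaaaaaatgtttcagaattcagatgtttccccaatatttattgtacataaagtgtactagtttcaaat
Replicate 1 ranked other places in lin-14 highest. Its 2 strongest summits there, 16862 bp (11.5, rank 401) and 1518 bp (8.95, rank 916) inside the gene, matched pooled summits of only 12.9 and 10.9 and had no replicate 2 summit within 100 bp. Of the 20 pooled lin-14 summits, 3 had a summit in both replicates, at 2661, 5531 and 13329 bp from the 5' end, and their pooled values were 17.6, 14.8 and 14.9. In those shared sites the better of the 2 replicate ranks was 5392, 9582 and 18653 in turn.

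**Figure D2:**
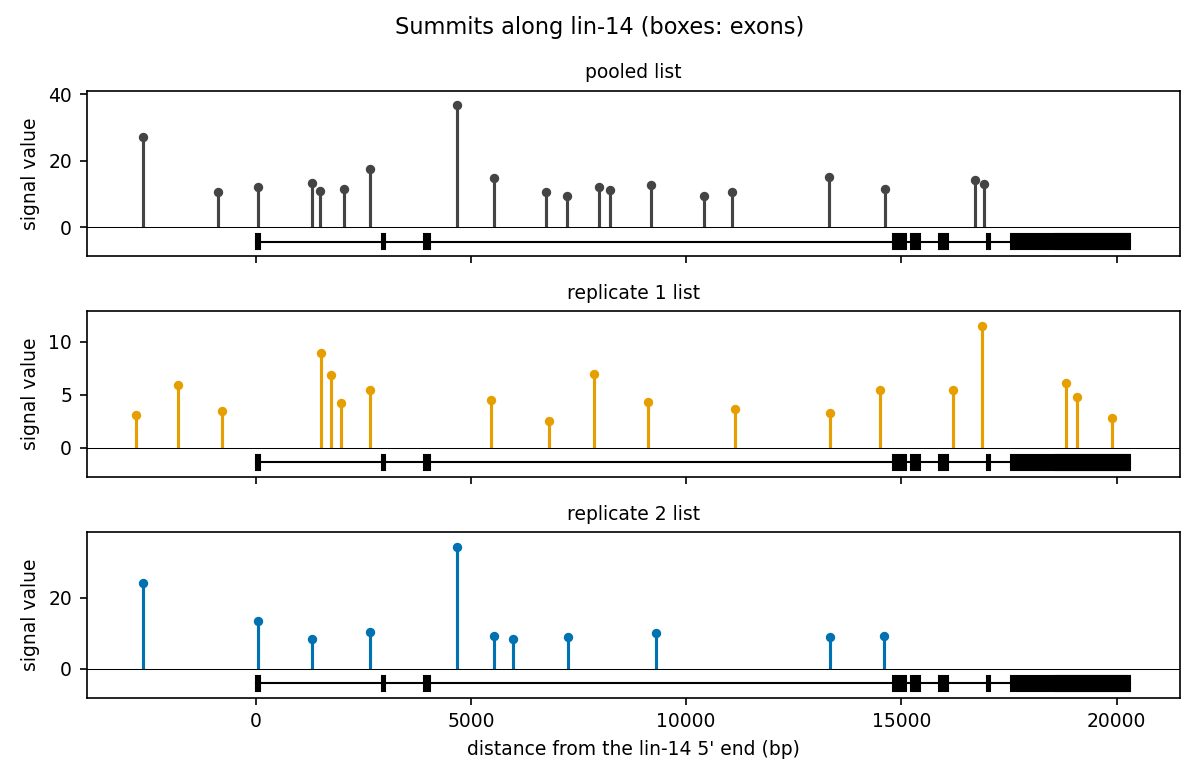
Summits along lin-14 by distance from its 5' end (bp), with signal value on the vertical axis of each list's own scale and exons as black boxes. The tallest pooled and replicate 2 stems, 4677 and 4682 bp inside the gene, have no counterpart in replicate 1, whose tallest stem is 16862 bp inside.

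hbl-1 (WBGene00001824, X: 5822142 to 5827755, plus strand), a target of let-7, was the member with no pooled summit, while 83.5% of 1890 protein-coding genes of similar length had at least 1. Replicate 1 listed 3 summits, 858 bp upstream (4.99, rank 7134), 1804 bp upstream (4.41, rank 9965) and in a coding exon (3.40, rank 17697). Replicate 2 listed 1, in an intron 3776 bp from the 5' end (9.43, rank 20216). No hbl-1 summit of a replicate was within 100 bp of one in the other. The thresholded peak nearest to any member was 13583 bp downstream of hbl-1; it lay upstream of puf-9, with a pooled value of 99.4 and nuclear rank 9.

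lin-28 and lin-41 had fewer summits than lin-14, but each had a strong site near its 5' end. lin-28 (WBGene00003014, I: 8407630 to 8410804, minus strand) had 4 pooled summits, the weakest at rank 3648: 26.1 in an intron 384 bp inside the gene, 24.7 in the 3' UTR, 20.7 at 759 bp upstream and 18.6 in an intron. Its strongest summit exceeded that of 95.0% of 3353 protein-coding genes of similar length. The site 384 bp inside was found in both replicates, but at rank 509 (22.9) in replicate 2 and 8964 (4.60) in replicate 1. The 3' UTR site had rank 836 (21.04) in replicate 2 and no replicate 1 summit within 1223 bp. In replicate 1 the strongest lin-28 summit lay 1498 bp upstream (7.65, rank 1625). It was 120 bp upstream of the 5' end of F02E9.7, a protein-coding gene. Position thus did not settle to which gene the upstream sites of lin-28 belong. lin-41 (WBGene00003026, I: 9334800 to 9342496, minus strand) had 3 pooled summits, against a median of 3 in genes of similar length. Those at 1515 bp upstream (23.7, rank 1153) and 164 bp upstream (21.4, rank 1875) were both found in both replicates. The farther one ranked 419 in replicate 1 (11.4) and 11240 in replicate 2 (11.8). The nearer one ranked 2680 (6.69) and 5097 (14.7), the smallest gap between replicate ranks among the 10 shared sites of the members. For lin-41, 2 shared sites exceeded the count in 92.1% of 1218 genes of similar length.

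lin-46 and lin-29 had no pooled summit stronger than nuclear rank 6754. The strongest pooled summits of lin-4 and let-7 were weaker still (ranks 14519 and 21160), and hbl-1 had none. lin-46 (WBGene00003031, V: 12968855 to 12970730, plus strand) had pooled summits 1538 bp upstream (16.1, rank 6754) and 494 bp upstream (11.4, rank 19314), both in replicate 2 only. The stronger lay within the neighbouring gene R186.8 and 107 bp upstream of R186.3. lin-29 (WBGene00003015, II: 11917642 to 11935343, minus strand) had 4 pooled summits, against a median of 6 in 314 genes of similar length, with values of 16.0, 15.9, 12.2 and 9.36, all in introns. The strongest, 14599 bp inside the gene, had only a replicate 1 summit within 100 bp (3.19, rank 19812). From there the nearest replicate 2 summit was 4422 bp away. The lin-29 site 8183 bp inside the gene (15.9) ranked 2896 in replicate 2 (16.7), and the nearest replicate 1 summit was 2073 bp away. No lin-29 or lin-46 summit was found in both replicates.

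daf-12 and lin-42 are long genes whose strongest pooled sites lay in introns, far from the outermost 5' end, and were found in both replicates. daf-12 (WBGene00000908, X: 10635908 to 10666875, plus strand) held 16 pooled summits, against a median of 8 in the 200 protein-coding genes nearest to it in length, of which 86.0% had fewer. That count rests on the Ensembl span: the RefSeq 5' end is 8501 bp later, and from there daf-12 held 8 pooled summits, against a median of 7 in genes of similar length, of which 55.3% had fewer. Its strongest, 21550 bp inside the gene and 1881 bp upstream of the nearest transcript start, had a pooled value of 19.98 (rank 2634), with 6.52 (rank 2957) in replicate 1 and 12.02 (rank 10740) in replicate 2. Of those 200 genes, 57.5% had a weaker strongest summit in the pooled list, 56.0% in replicate 1 and 32.5% in replicate 2. A second shared daf-12 site, 9216 bp inside the gene and 684 bp downstream of the nearest transcript start, had 15.7 (rank 7389). It had 12.9 (rank 8509) in replicate 2. In replicate 1 it had 2.68 (rank 26005), near that list's lowest nuclear value of 2.40. The second strongest pooled daf-12 summit, 1485 bp upstream (19.2, rank 3163), had only a replicate 2 summit within 100 bp (14.5, rank 5343). The nearest replicate 1 summit was 208 bp away, with a value of 5.69 and rank 4779. lin-42 (WBGene00018572, II: 1233236 to 1252359, minus strand) held 8 pooled summits, against a median of 6 in 249 genes of similar length. Its strongest, 14507 bp inside, had a value of 25.1 (rank 867), and 87.1% of those genes had a weaker one, while in replicate 2 34.9% had a weaker strongest summit than lin-42. That site, 883 bp upstream of the nearest transcript start of lin-42, ranked 667 in replicate 1 (9.80) and 6455 in replicate 2 (13.9), with summits 1 and 5 bp from the pooled summit. The second lin-42 site, 5343 bp inside, had 21.3 (rank 1911), with ranks 1377 (7.98) and 12516 (11.4). The 3 sequences are shown as the strongest sites of these genes with both replicates present, on the strand of the gene, at chrX:10657408-10657508, chrII:1237802-1237902 and chrII:1246966-1247066; GC content was 25.7%, 47.5% and 57.4%. Capitals mark a match to GGGTCA, read on the other strand.
daf-12 intron: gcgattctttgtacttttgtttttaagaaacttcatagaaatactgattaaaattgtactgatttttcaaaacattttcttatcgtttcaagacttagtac
lin-42 intron, 14507 bp: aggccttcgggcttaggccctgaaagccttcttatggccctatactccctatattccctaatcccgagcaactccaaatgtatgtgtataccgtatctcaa
lin-42 intron, 5343 bp: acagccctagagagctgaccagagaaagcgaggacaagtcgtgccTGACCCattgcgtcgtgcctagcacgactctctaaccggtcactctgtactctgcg

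Over the 10 genes there were 61 pooled summits, against 37 when the medians of similar-length genes were added up, and lin-14 and daf-12 made up 36 of the 61 (28 of 53 with RefSeq spans). A sum of medians is not the total expected of such genes, so 61 against 37 does not measure an excess. More summits than the similar-length median were found at 7 genes, fewer at lin-29 and hbl-1, and the same number at lin-41. The strongest summit was above the similar-length median at 7 of 10 genes in the pooled list, 8 in replicate 1 and 6 in replicate 2, where an even share would be 5. Pooled summits were denser on X (340.9 per Mb), which holds 4 members, than on II (234.0 per Mb), which holds 3. Against 30 genes of similar length on X, lin-14 had more pooled summits than each (median 8), but in replicate 2 its 11 summits were more than in 66.7% of them (median 9). Of the 61 summits, 42 (68.9%) lay in introns, 13 (21.3%) upstream, 2 in coding exons, 2 in 3' UTRs, 1 in a 5' UTR and 1 in an exon of let-7. Within 500 bp of the gene 5' end there were 5 of 61, and within 500 bp of any annotated transcript start of the gene 12 of 61. The matching shares over all pooled summits were not computed. These places therefore describe the members alone and do not set them apart from other genes.

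**Figure D3:**
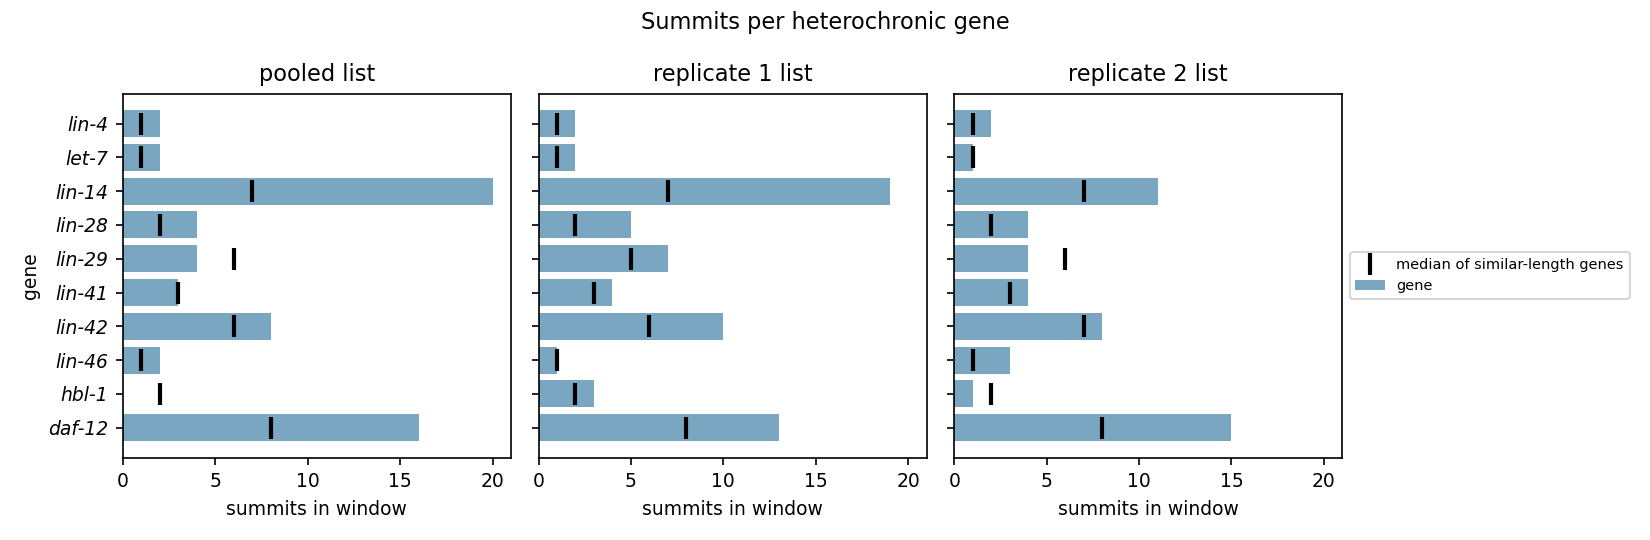
Number of summits in the window of each gene in the pooled, replicate 1 and replicate 2 lists, with the median of similar-length protein-coding genes as a black tick. lin-14 has 20, 19 and 11 summits against a tick at 7 in each list, and hbl-1 has 0, 3 and 1 against 2.

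The replicates ranked the members differently. By strongest summit, the order in replicate 1 began with let-7 (14.6), lin-14 (11.5), lin-41 (11.4) and lin-42 (9.80), and in replicate 2 with lin-14 (34.5), lin-28 (22.9), lin-29 (16.7) and lin-41 (14.7). In the upper 1000 nuclear summits, replicate 1 placed 5 sites at 4 members (let-7, lin-14, lin-41 and lin-42), against 6.54% of protein-coding genes and 0.960 members by the shares of similar-length genes. Replicate 2 placed 4 sites at 2 members (lin-14 and lin-28), against 6.23% and 1.04 members. No site was in the upper 1000 of both, so 0 of 10 members had one, against 1.41% of protein-coding genes. A site found in both replicates at any rank was present at 5 members (lin-14, lin-28, lin-41, lin-42 and daf-12), against 21.6% of protein-coding genes and 3.57 members by the shares of similar-length genes. Of the 61 pooled summits, 10 (16.4%) were in both replicates, 12 (19.7%) in replicate 1 only, 29 (47.5%) in replicate 2 only and 10 in neither. In the windows of all protein-coding genes these shares were 14.8%, 12.2%, 58.0% and 15.003%.

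Base composition moved with the replicate. Within 50 bp of the summit, the members' replicate 1 summits had a median GC content of 40.6% and their replicate 2 summits 27.7%, against 32.7% and 27.7% over each replicate's whole nuclear list. The 12 pooled member summits in replicate 1 only had a median of 39.6%, against 30.7% over all nuclear pooled summits in replicate 1 only. The 29 in replicate 2 only had 26.7%, against 26.7% over all nuclear pooled summits in replicate 2 only. The part of base composition in the disagreement of the replicates was not tested.

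**Figure D4:**
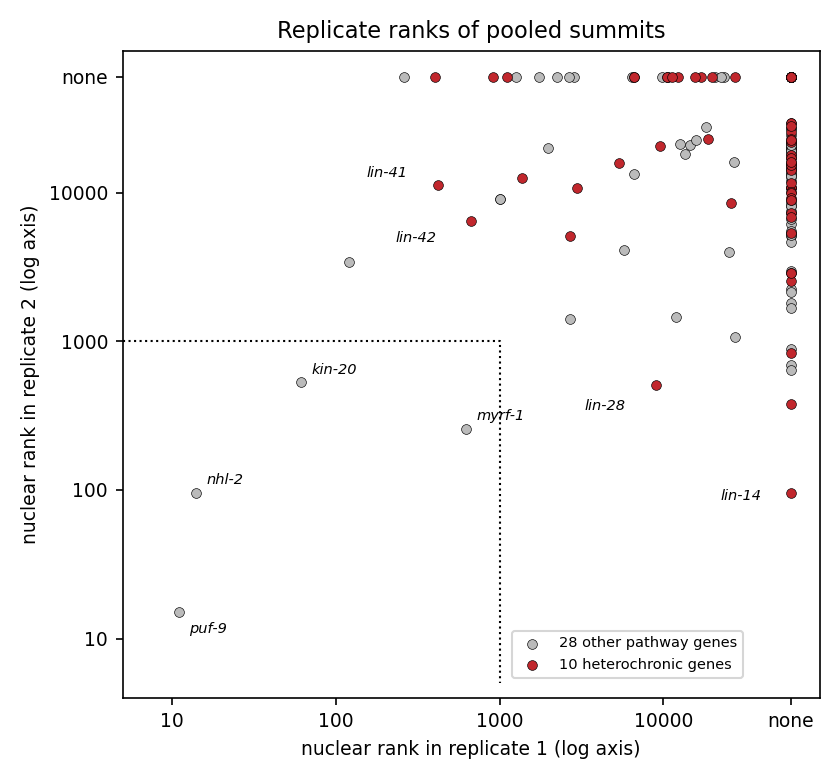
Nuclear rank in replicate 1 against that in replicate 2 (log axes) for pooled summits of the 10 heterochronic genes (red) and of 28 other pathway genes (grey); "none" marks a summit with no replicate partner within 100 bp, and the dotted box the upper 1000 of both. No red point is in the box, which holds puf-9, nhl-2, kin-20 and myrf-1, and lin-14 has rank 95 in replicate 2 and none in replicate 1.

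Short motifs of nuclear receptors were found at few member summits, near their share over all summits. Both strands were searched within 50 bp of each pooled summit. AGGTCA was at 1 of 61 member summits (1.64%, the lin-14 intron site) and at 1.79% of 29401 nuclear pooled summits. AGTTCA was at 3 (4.92%) against 6.72%, AGTGCA at 3 (4.92%) against 2.73%, and GGGTCA at 1 (1.64%, the lin-42 site) against 1.00%. GAGAGA was at 2 (3.28%) against 4.91%. Of the 10 summits in both replicates, 1 held any of the 4 receptor motifs, that of lin-42. A match is not by itself a binding site.

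Among 28 other genes of the pathway, a list chosen with earlier results of these data known, 3 carried thresholded summits, namely puf-9, nhl-2 and kin-20, against the 1.5% of protein-coding genes above. The difference from the members was not tested. puf-9, which encodes a Pumilio-family RNA-binding protein, had its peak 254 bp upstream, with a pooled value of 99.4 and ranks 11 and 15 in replicates 1 and 2. nhl-2, which encodes a TRIM-NHL protein that aids microRNA silencing, had one 869 bp upstream (64.8; ranks 14 and 96), but that summit was 554 bp upstream of tag-340, which was nearer. kin-20, a casein kinase related to Doubletime, had one in an intron 2289 bp inside the gene (38.8; ranks 61 and 531). myrf-1, a membrane-bound transcription factor, had a pooled value of 36.4 just upstream of its 5' end (ranks 621 and 258), so 4 of 28 genes had a site in the upper 1000 of both replicates, against 1.41% of protein-coding genes and 0.527 genes by the shares of similar-length genes. ain-1, which encodes a GW182-type partner of Argonaute, had 31.3 (ranks 120 and 3407). The let-7 relatives mir-48 and mir-241 shared 1 summit of 23.5, which lay 2558 bp upstream of mir-48 and 784 bp upstream of mir-241, and mir-84 had 13.6. blmp-1 and dcr-1 had no pooled summit. In all, 26 of 28 held a pooled summit, near the 22.8 given by similar-length genes (70.4% of all protein-coding genes), and 14 a site in both replicates, against 8.65 (21.6%).

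**Figure D5:**
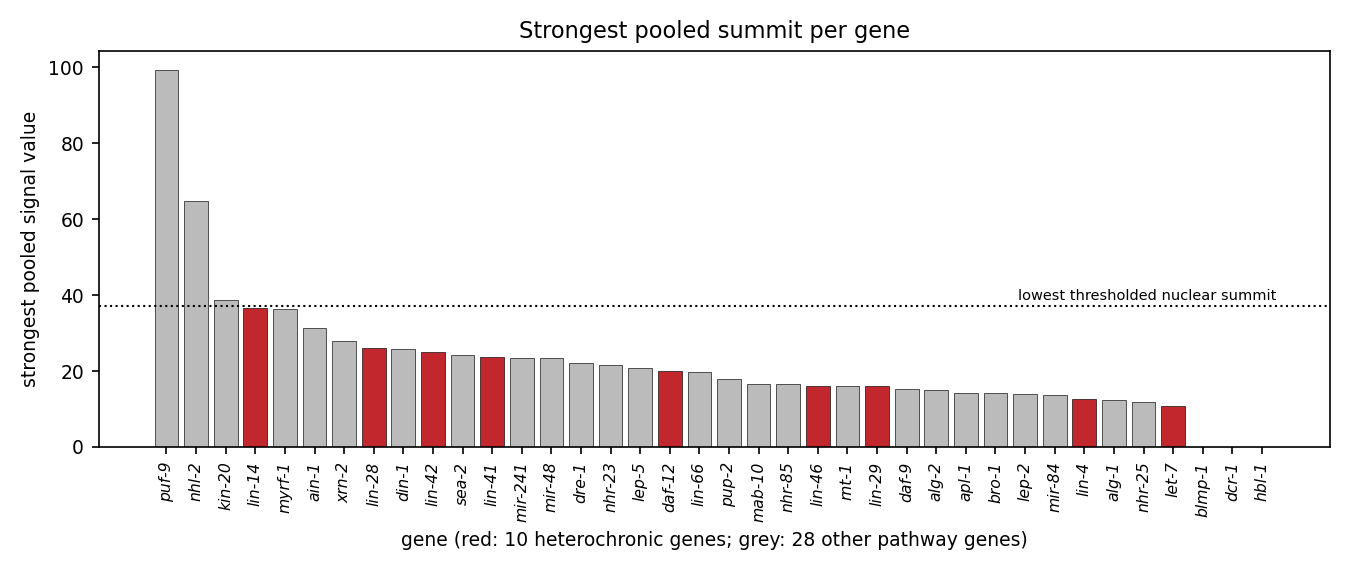
Strongest pooled signal value in the window of each of the 10 heterochronic genes (red) and 28 other pathway genes (grey), in falling order, with the lowest thresholded nuclear value (37.2) dotted. Only puf-9, nhl-2 and kin-20 pass the line, lin-14 is next at 36.7, and the bars of blmp-1, dcr-1 and hbl-1 are at 0 for want of a pooled summit.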

How the data were processed

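Per the file notes, the authors made relaxed peak lists from replicate 1, replicate 2 and their pool, with controls, and 1 list thresholded by IDR, with cut-off, peak caller, aligner and settings not given in the sources used here. Within a list, peaks were ranked by the deposited signal value; the deposited −log10 q-value was not used. Read depth is unknown. Lists on ce11 were used, and those on ce10 were not. Genes came from Ensembl release 115 (WBcel235, the same assembly as ce11); lin-4, let-7 and other microRNAs carry database names there and were matched by WormBase ID to RefSeq symbols. Ensembl and RefSeq spans were identical for 8 of 10 members; daf-12 starts 8501 bp later in RefSeq.

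With Python 3.11.15 and pandas 2.3.3, summits were counted per window, counted from 1. A pooled summit was in a replicate when that list had a summit within 100 bp. Comparison genes were protein-coding, within a factor of 1.25 in length, or the 200 nearest where under 100 existed (lin-4, daf-12); a gene without a summit counted as weakest. Counting and matching were tested on simulated data. No test was made, since there is 1 group. The rule named all members, their strongest, shared and thresholded summits, and pathway genes with thresholded sites or sites ranked high in both replicates; ain-1, the mir-48 family, blmp-1, dcr-1 and the GC comparison were added after values were seen. Members and lists were chosen with earlier results of these data known.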

Additional observations from a re-analysis of the deposited data

How the results depend on the processing

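The counts of members were recomputed with upstream windows of 1000, 2000 and 5000 bp, the gene body or the upstream part alone, the upper 50% of nuclear peaks, other length factors, other replicate distances and, added after the data were seen, comparison genes on the same chromosome and RefSeq gene spans. No setting run gave a member a thresholded summit or a site in the upper 1000 of both replicates. With the 3000 bp upstream alone, 13 pooled summits were left and 1 member, lin-41, had a site in both replicates; with the upper 50% of peaks 33 pooled summits were left. Both follow from the smaller window or list. Members with a site in both replicates numbered 4 within 50 bp and 7 by overlapping intervals. Without 1 replicate, using the list of the other, member summits numbered 53 to 66 and members above the similar-length median 6 to 8. RefSeq spans gave 53 pooled summits, because daf-12 fell from 16 to 8; members with a site in both replicates stayed at 5 and those above the similar-length median at 7. No paired analysis was possible because there is 1 group. Depth is unknown, so absence from a list does not show absence of binding.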
